A study of Mus musculus with 8 samples.

Results

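Chromatin accessibility was examined at 41 mouse genes that copy the genome: the replicative helicase (Mcm2 to Mcm7), origin recognition and licensing (Orc1 to Orc6, Cdc6 and Cdt1), helicase activation (Cdc45, Gins1 to Gins4 and Mcm10), the sliding clamp and its loader (Pcna and Rfc1 to Rfc5), the polymerases and primase (Pola1, Pola2, Prim1, Prim2, Pold1 and Pole), single-strand binding and lagging-strand joining (Rpa1 to Rpa3, Fen1 and Lig1) and the supply of deoxynucleotides (Tyms, Rrm1, Rrm2 and Tk1). They were chosen by name, as listed for this comparison, from 21938 protein-coding genes on the 21 chromosomes that carry peaks, and not by any measured value. The data were ATAC-seq peak lists of 8 libraries of SN4741, a mouse neural precursor line (genotype labelled WT) from embryonic substantia nigra that is reported to be clonal, has an unstable and mostly triploid karyotype, and carries a temperature-sensitive SV40 T antigen driven by the tyrosine hydroxylase promoter. The 4 control libraries came from cells kept at 37 °C, the permissive temperature, in 10% serum, and the other 4 from cells held at 39 °C, the non-permissive temperature, in 0.5% serum for 48 h. Temperature and serum changed together, so that effects of heat, of the loss of T antigen and of low serum cannot be told apart, and all cells of both groups carry the transgene.

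In each cell cycle the ORC complex marks origins, and Cdc6 and Cdt1 load the ring of MCM proteins on the DNA before S phase begins. Cdc45 and the GINS complex then turn that ring into an active helicase, polymerase alpha and primase lay down primers, and PCNA, placed by the RFC clamp loader, holds the main polymerases on the template. Many of these genes are transcribed at the entry to S phase under E2F factors, which retinoblastoma proteins hold in check in resting cells and which T antigen releases by binding those proteins.

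ATAC-seq uses a transposase that cuts open chromatin, so that fragments pile up over accessible DNA. The peak caller kept 49.8 to 169 M fragments per library at 37 °C, where replicates 1 and 4 were by far the deepest, and 52.7 to 71.2 M at 39 °C. The lists held 74026 to 92013 peaks at 37 °C and 54845 to 68410 at 39 °C. A peak lay at the promoter of Nes, Sox2, Pax6, Msi1 and Vim, 5 of 9 neural precursor markers, in all 8 libraries, and at none for Fabp7 and Prom1. Promoters of 4 of 6 dopaminergic markers and of 6 of 6 mesenchymal markers were open in all 8. A peak says that a promoter is open, not that its gene is transcribed. Reads per region were not used here, and each promoter was therefore placed within its own library: the percentile of a gene is the rank of the −log10 q of its best peak within 1 kb of a transcription start, among the 13145 genes with such a peak in all 8 libraries (0 the weakest, 100 the strongest).

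Promoter sequence was matched for 34 of the 41 genes in RefSeq (GRCm38.p6, the sequence of mm10), as 300 bases from 250 before to 50 after the start. It was searched on both strands for 4 words read by E2F factors, TTTCGCGC, TTTGGCGC, TTCCCGCC and TTTCCCGC, of which neighbours can overlap. At least 1 of them stood in 16 of the 34 promoters (47.1%), against 700 of all 10205 promoters matched (6.86%). The stretches below are shown for the genes whose promoters the results below turn on, with E2F words in capitals and written 5′ to 3′ along the gene. The first 7 fell in rank at 39 °C, as did Mcm3, which also holds such words, whereas Orc4 did not, and neither did Orc3, Cdt1, Gins3, Rfc3, Rfc4, Pold1 and Lig1, so that 8 of the 16 promoters with a word fell.
Mcm5, chr8:75109336-75109387, plus strand: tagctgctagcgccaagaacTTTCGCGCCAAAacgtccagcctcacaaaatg
Mcm6, chr1:128359725-128359835, minus strand: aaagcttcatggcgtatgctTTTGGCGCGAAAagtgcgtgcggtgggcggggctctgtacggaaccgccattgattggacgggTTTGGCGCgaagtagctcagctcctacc
Orc1, chr4:108579407-108579454, plus strand: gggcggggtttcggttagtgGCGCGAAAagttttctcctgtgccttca
Cdc6, chr11:98907993-98908040, plus strand: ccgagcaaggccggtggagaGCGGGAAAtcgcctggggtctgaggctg
Pola1, chrX:93632266-93632313, minus strand: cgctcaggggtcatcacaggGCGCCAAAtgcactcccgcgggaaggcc
Prim1, chr10:128015180-128015227, plus strand: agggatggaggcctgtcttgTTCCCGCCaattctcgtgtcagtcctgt
Rrm1, chr7:102441608-102441655, plus strand: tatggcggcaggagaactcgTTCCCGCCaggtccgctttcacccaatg
Orc4, chr2:48949381-48949428, minus strand: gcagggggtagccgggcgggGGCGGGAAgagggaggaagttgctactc
In Mcm5 an E2F word on each strand overlaps the other. In Mcm6 such a pair lies upstream of a further single word. The median peak summit lay 20 bp from the centre of the word in Prim1, 33 bp in Orc1, 80 bp in Orc4, 84 bp in Pola1 and 184 bp in Rrm1, and 293 bp from it in Cdc6.

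All 41 genes had a promoter peak in all 8 libraries, a state shared by 87.3% of the 15065 protein-coding genes with a promoter peak in any library. None was restricted to one temperature, where 2.13% of the 15065 genes had a peak in all 4 libraries at 37 °C and in 0 at 39 °C, and 0.0199% the reverse. No gene of the 15065 passed Fisher's exact test on presence after adjustment, whereas 324 had an unadjusted p under 0.05. With 4 against 4 libraries the p of that test cannot go below 0.0286, so that these 324 genes could not pass after adjustment. The median summit of 37 of the 41 lay within 200 bp of an annotated start (90.2%, against 78.1% of all promoters tested). Summits of 35 stayed within 100 bp of each other over the 8 libraries (85.4%, against 61.7%), and the widest ranges were 231 bp in Rrm2, 284 bp in Pcna and 14150 bp in Tk1. In 13 of the 41 the same peak also held the start of another coding gene in all 8 libraries, as for Mcm4 with Prkdc, Mcm7 with Ap4m1, Orc1 with Prpf38a and Pole with Pxmp2, so that these values belong to both genes.

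Ranks differed between the temperatures. At 39 °C 17 of the 41 promoters fell among the open promoters and 0 rose (limma on normal scores, Benjamini-Hochberg adjusted over 13145 genes), against 7.79% of all promoters that fell and 8.68% that rose. At an unadjusted limma p under 0.05, 23 of the 41 fell and 2 (Orc4 and Cdt1) rose, against 1866 and 2438 of the 13145 promoters. By the unadjusted exact test 19 fell and 1 (Cdt1) rose, against 10.6% and 12.8% of all promoters. The median percentile of the 41 genes was 67.7, 69.2, 69.6 and 70.2 in replicates 1 to 4 at 37 °C and 59.6, 63.8, 61.7 and 59.4 at 39 °C, and the groups did not overlap. The median difference per gene was -4.36 percentile points, against 0.402 over all promoters, and 33 of the 41 differences were below 0. The values at 39 °C lay entirely below those at 37 °C in 19 of the 41 genes and above in 1, where 10.6% and 12.8% of all promoters did so. These are the genes of the exact test, which passes here only where the groups do not overlap. Without the deepest libraries, 37 °C replicates 1 and 4, 11 of the 41 fell, against 4.5% of all promoters. Leaving out single libraries also ended some calls: Prim1 (without 37 °C replicates 1, 2 or 4 or 39 °C replicates 1, 2 or 3), Orc5 and Rfc5 (without 37 °C replicates 2 or 4 or 39 °C replicates 1, 2 or 4), Mcm3 (without 37 °C replicates 2 or 4 or 39 °C replicates 1 or 2) and Rfc1 (without 39 °C replicates 2 or 4). Their limma adjusted p reached 0.183, 0.154, 0.181, 0.102 and 0.0565 in that order over all alternatives. With a percentile taken among all promoters open in each library, 25 fell and 0 rose, but so did 29.7% of all promoters, with 3.9% that rose.

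**Figure D1:**
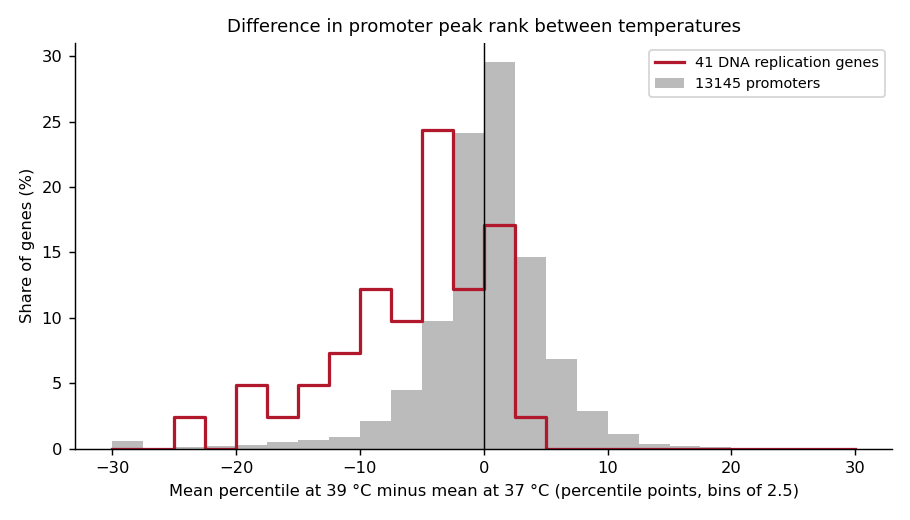
Difference in promoter percentile between temperatures (horizontal axis, mean at 39 °C minus mean at 37 °C in percentile points, bins of 2.5) as a share of genes (vertical axis, %), for all 13145 promoters (grey bars; values past ±30 are in the end bins) and the 41 DNA replication genes (red line). The median of all promoters is 0.402 and that of the replication genes -4.36.

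**Figure D2:**
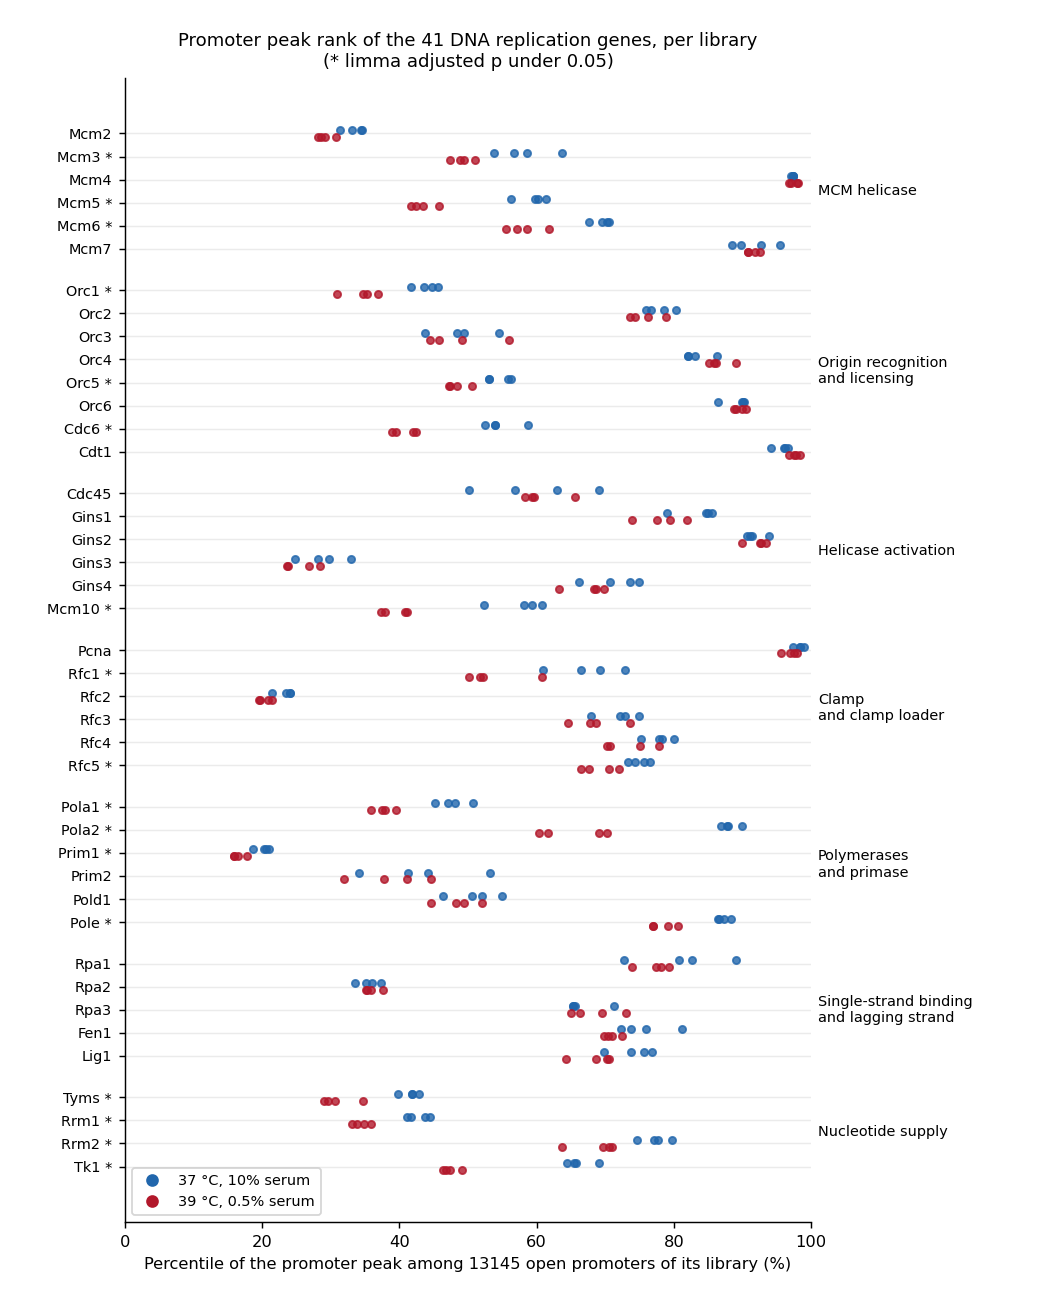
Percentile of the promoter peak (horizontal axis, %) of each replication gene in each of 8 libraries, blue for 37 °C and red for 39 °C, grouped by role, with a star where the adjusted p was under 0.05. Mcm5, Cdc6, Mcm10, Pola2, Tyms and Tk1 show separate clouds, while Mcm4, Cdt1 and Pcna stay near the top at both temperatures.

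The MCM helicase unwinds DNA ahead of the fork, and 3 of its 6 subunit genes fell (Mcm3, Mcm5 and Mcm6). Mcm5 stood at percentiles of 61.4, 56.2, 60.1 and 59.8 at 37 °C and 42.5, 45.8, 43.5 and 41.7 at 39 °C. Every library at 39 °C was below every one at 37 °C, with means of 59.4 ± 2.24 and 43.4 ± 1.77 (SD, n = 4 each; limma adjusted p = 0.000609). Mcm6 had 67.7, 70.5, 69.6 and 70.2 at 37 °C and 58.6, 57.1, 61.7 and 55.5 at 39 °C, again without overlap (limma adjusted p = 0.00302). Mcm3 went from 58.2 ± 4.14 to 49.2 ± 1.47 (SD, n = 4 each; limma adjusted p = 0.0243). Mcm2, the lowest of the family, had 34.4, 31.4, 34.5 and 33.1 at 37 °C and 28.6, 28.2, 30.8 and 29.2 at 39 °C, which do not overlap but did not pass the threshold (limma adjusted p = 0.0639). Mcm4, the highest, had 97.4, 97.0, 97.4 and 97.3 at 37 °C and 96.7, 98.0, 97.1 and 98.1 at 39 °C, which overlap. It shares its peak with Prkdc, the catalytic subunit of a DNA repair kinase. Mcm7 was also level, at 91.6 ± 3.10 and 91.5 ± 0.859 (SD, n = 4 each).

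Of the 8 licensing genes, Orc1, Orc5 and Cdc6 fell. Cdc6, the ATPase that brings MCM to origins, had percentiles of 54.0, 52.5, 53.9 and 58.8 at 37 °C and 39.0, 39.4, 42.4 and 41.9 at 39 °C. The groups were apart by more than the spread within either, with means of 54.8 ± 2.74 and 40.7 ± 1.74 (SD, n = 4 each; limma adjusted p = 0.00145). Orc1, the largest ORC subunit, had 44.8, 41.7, 45.6 and 43.6 at 37 °C and 35.3, 34.6, 36.9 and 30.9 at 39 °C, also without overlap (limma adjusted p = 0.00792). The Orc1 call was lost with replicate block and depth and without the 2 deepest libraries (limma adjusted p up to 0.0516). Orc5 went from 54.6 ± 1.75 to 48.4 ± 1.59 (SD, n = 4 each; limma adjusted p = 0.0292). Cdt1, the partner of Cdc6 in loading, went the other way: it had 96.6, 96.0, 94.1 and 96.2 at 37 °C and 97.7, 97.4, 98.4 and 96.7 at 39 °C. The lowest value at 39 °C was just above the highest at 37 °C, and the difference missed the threshold (limma adjusted p = 0.0514). Of the remaining subunits Orc4 had 82.0, 83.0, 86.2 and 82.0 at 37 °C and 85.8, 85.1, 89.0 and 86.1 at 39 °C, with overlap, and Orc2, Orc3 and Orc6 overlapped too.

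Among the 6 genes of helicase activation only Mcm10 fell. This scaffold protein, which joins the helicase to polymerase alpha, had percentiles of 52.3, 59.4, 58.1 and 60.7 at 37 °C and 37.9, 40.8, 37.3 and 41.1 at 39 °C. The drop from 57.6 ± 3.70 to 39.3 ± 1.94 (SD, n = 4 each) was larger than the spread in either group (limma adjusted p = 0.000835). Gins2, a subunit of the GINS complex, stayed high, with 90.6, 91.0, 93.9 and 91.3 at 37 °C and 89.9, 92.7, 93.5 and 92.5 at 39 °C. Gins3, the lowest of the group, had 24.9, 32.9, 28.2 and 29.7 at 37 °C and 26.9, 23.6, 28.5 and 23.7 at 39 °C. Both overlapped between temperatures, as did Cdc45, Gins1 and Gins4.

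In the clamp and its loader, Rfc1 and Rfc5 fell. Pcna, the clamp itself, was among the strongest promoters of every library, at 98.9, 98.3, 97.3 and 98.3 at 37 °C and 97.5, 96.9, 95.6 and 97.9 at 39 °C, and these values overlapped. Rfc1, the large loader subunit, went from 67.4 ± 5.03 to 53.7 ± 4.81 (SD, n = 4 each; limma adjusted p = 0.0183). Rfc5 had 73.3, 75.6, 74.3 and 76.5 at 37 °C and 66.5, 67.7, 72.0 and 70.5 at 39 °C, without overlap (limma adjusted p = 0.0360). Rfc2, the weakest of the group, had 24.0, 21.5, 23.5 and 24.0 at 37 °C and 20.9, 21.4, 19.7 and 19.6 at 39 °C. Its groups came within a fraction of a point of each other and did not pass (limma adjusted p = 0.110). Rfc3 and Rfc4 overlapped.

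Of the 6 polymerase and primase genes 4 fell: Pola1, Pola2, Prim1 and Pole. Pole, the catalytic subunit of the leading-strand polymerase, had percentiles of 86.6, 87.3, 88.3 and 86.4 at 37 °C and 76.9, 77.0, 80.5 and 79.1 at 39 °C. The groups lay clearly apart (limma adjusted p = 0.00119), and the peak also holds the start of Pxmp2, a peroxisomal membrane protein gene. Pola1, the catalytic subunit of polymerase alpha, had 47.0, 45.2, 50.7 and 48.0 at 37 °C and 35.9, 39.5, 37.9 and 37.4 at 39 °C (limma adjusted p = 0.00524). The Pola1 call was lost with replicate block and depth (limma adjusted p = 0.0563). Prim1, the primase that begins each primer, was weak in all libraries, at 20.6, 20.3, 18.7 and 21.0 at 37 °C and 15.9, 16.5, 15.9 and 17.8 at 39 °C, but without overlap (limma adjusted p = 0.0382). Prim2 and Pold1 overlapped between temperatures.

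Pola2, the regulatory subunit of polymerase alpha, showed the widest gap of the 41 genes, but only at a peak away from its main promoter. Its percentiles were 87.9, 87.7, 86.8 and 89.9 at 37 °C and 61.6, 69.1, 70.2 and 60.4 at 39 °C (means 88.1 ± 1.27 and 65.3 ± 5.01, SD, n = 4 each; limma adjusted p = 0.000206). The peak behind those values stood near the 3′ end of the gene, 1396 to 1426 bp upstream of the nearest annotated start, and not at the main promoter. With only the starts of coding transcripts, the promoter at the 5′ end had 57.3, 59.4, 55.7 and 55.0 at 37 °C and 44.0, 38.8, 42.7 and 43.8 at 39 °C. Its summit lay within 53 bp of the gene start in all libraries, and the fall was again larger than the spread (limma adjusted p = 0.00112).

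None of the 5 genes for single-strand binding and lagging-strand joining passed the threshold in either direction (2 of them had an unadjusted limma p under 0.05). Rpa1, the large subunit of the single-strand binding protein, had percentiles of 72.7, 82.6, 89.1 and 80.7 at 37 °C and 77.3, 78.1, 79.3 and 73.8 at 39 °C. Rpa2, its phosphorylated partner, had 37.3, 33.6, 35.1 and 36.0 at 37 °C and 35.1, 35.2, 35.9 and 37.7 at 39 °C. Both overlapped. Fen1, the nuclease that trims flaps between Okazaki fragments, had 75.8 ± 3.88 and 70.9 ± 1.17, and Lig1, the ligase that joins them, had 74.0 ± 3.07 and 68.4 ± 2.89 (SD, n = 4 each).

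All 4 genes of deoxynucleotide supply fell. Tyms, thymidylate synthase, had percentiles of 39.7, 41.8, 41.8 and 42.8 at 37 °C and 29.0, 30.6, 34.7 and 29.5 at 39 °C (limma adjusted p = 0.00431). Rrm1, the large subunit of ribonucleotide reductase, had 43.7, 41.1, 41.7 and 44.5 at 37 °C and 33.8, 34.8, 33.1 and 35.9 at 39 °C (limma adjusted p = 0.00641). Rrm2, its small subunit, had 79.8, 77.2, 74.7 and 77.8 at 37 °C and 71.0, 63.8, 70.6 and 69.7 at 39 °C (limma adjusted p = 0.0158). None of these 3 overlapped between temperatures, but Rrm1 and Rrm2 were lost as calls with replicate block and depth and without the 2 deepest libraries (limma adjusted p up to 0.0557 and 0.0947). Tk1, the thymidine kinase of the salvage pathway, had 69.0, 65.4, 64.5 and 65.7 at 37 °C and 46.8, 49.1, 46.4 and 47.4 at 39 °C (limma adjusted p = 0.000161).

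For Tk1 the values at the 2 temperatures belong to different summits. At 37 °C the peak counted for Tk1 also held the start of the neighbouring gene Syngr2 in all 4 libraries, and its median summit lay 824 bp from the start of Syngr2. At 39 °C the summit lay 1152 to 1158 bp from the nearest Tk1 start. In 37 °C replicate 3, where the peak was split, the part over the main coding start of Tk1 had a percentile of 47.6, inside the range of 46.2 to 49.0 found at 39 °C when only coding starts were used. Requiring the summit to lie within 1 kb of a start removed Tk1 from the comparison. It left 40 genes, of which 17 fell, 16 of them in common with the 17 above, against 8.59% of all promoters tested under that rule.

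The height of the best peak, divided by the median height over promoters of its library, gave a view that does not depend on ranks. Over the 41 genes its median fold was 0.947 at 39 °C relative to 37 °C, against 1.01 over all promoters. On this scale 18 genes fell and 2, Orc4 and Cdt1, rose, where 14.8% and 12.1% of all promoters did so. Cdt1 had relative heights of 2.19, 2.16, 2.09 and 2.10 at 37 °C and 2.49, 2.52, 2.66 and 2.35 at 39 °C, a fold of 1.17 (limma adjusted p = 0.00756). Mcm10 went the other way, from a mean of 1.11 ± 0.0529 to 0.825 ± 0.0314 (SD, n = 4 each), a fold of 0.741 (limma adjusted p = 0.000423). These relative heights were compared after the ranks had been seen.

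Peak width was compared as the log2 of the width minus the median of the library, because promoter peaks of all genes shifted by a median of -0.19 on the log2 scale at 39 °C. On that scale 5 of the 41 peaks narrowed (Pola2, Cdc6, Tyms, Mcm2 and Tk1) and 0 widened, against 6.63% and 3.83% of all promoters. At an unadjusted limma p under 0.05, 11 narrowed and 2 widened, against 1856 and 2664 of the 13145 promoters. By the unadjusted exact test 9 narrowed and 3 widened, against 9.57% and 13.8% of all. Cdc6 had peaks of 3511, 2923, 3313 and 3374 bp at 37 °C and 1625, 1648, 1275 and 1232 bp at 39 °C, a 2.27-fold difference between the means that stood well outside the spread (centred log2 difference -0.95 ± 0.09, SE; limma adjusted p = 0.000633). Tyms had 3627, 2690, 2588 and 2627 bp at 37 °C and 1453, 1202, 1625 and 1069 bp at 39 °C (limma adjusted p = 0.00667). Mcm2 had 4276, 3494, 2732 and 3686 bp at 37 °C and 2465, 1963, 1773 and 1939 bp at 39 °C (limma adjusted p = 0.0111). In all 3 the groups were separate, but each call was lost with replicate block and depth in the fit, and that of Mcm2 also without the 2 deepest libraries (limma adjusted p up to 0.105, 0.244 and 0.0982 over all alternatives for Cdc6, Tyms and Mcm2). The 3′ peak of Pola2 measured 10991, 9894, 9798 and 9919 bp at 37 °C and 2122, 2279, 2298 and 2009 bp at 39 °C (limma adjusted p = 4.97e-06). Part of that gap is a merge: at 37 °C the peak ran on past the end of the gene, and at 39 °C a separate stretch there was still called in all 4 libraries, as 1 peak of 4524 bp in replicate 1 and of 3821 bp in replicate 2 and as several peaks in replicates 3 and 4. The peak at the 5′ start of Pola2 went from 5149 ± 1172 to 3147 ± 459 bp (SD, n = 4 each; limma adjusted p = 0.0362). Tk1 had 22937, 22065, 8957 and 23037 bp at 37 °C and 7810, 8160, 4977 and 5114 bp at 39 °C (limma adjusted p = 0.0252). Its 37 °C replicate 3 stood close to the highest value at 39 °C. The Tk1 call was lost with depth in the fit, with or without the replicate block, and without the 2 deepest libraries. It was also lost without any one of 37 °C replicates 1, 2 and 4 and 39 °C replicates 3 and 4 (limma adjusted p from 0.000730 to 0.191 over the alternatives).

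**Figure D3:**
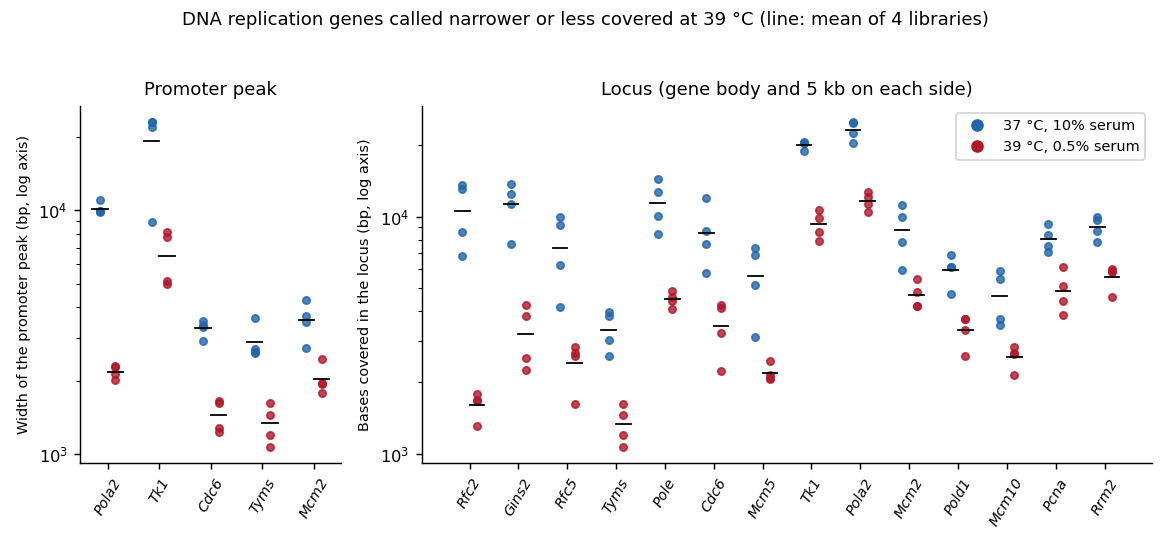
Width of the promoter peak (left, bp, log axis) for the 5 genes that narrowed at 39 °C, and bases covered by peaks in the gene body and 5 kb on each side (right, bp, log axis) for the 14 genes that fell, with 1 point per library and a line at the mean of 4. Rfc2, Gins2 and Rfc5 show the widest gaps on the right, and Pola2 on the left.

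Accessibility along the whole gene was taken as the bases covered by peaks in the gene body and 5 kb on each side. Over all loci the median shift at 39 °C was -0.35 on the log2 scale, and the comparison was again centred on the library. Relative to that shift 14 of the 41 genes fell (34.1%) and 10 rose (24.4%), against 19.3% and 31.0% of 15519 loci. Without the 2 deepest libraries 11 of the 14 fell and 0 rose, against 13.0% and 10.9% of all loci, and with replicate block and depth in the fit 12 of the 14 fell and 0 rose, against 12.8% and 9.56%. Without the centring, which moves all loci of a library alike, 23 genes fell and 0 rose, against 36.0% and 0.2% of all loci. The 14 were Mcm2 and Mcm5 of the helicase, Cdc6 of licensing, Gins2 and Mcm10 of activation, Pcna, Rfc2 and Rfc5 of the clamp and its loader, Pola2, Pold1 and Pole of the polymerases, and Tyms, Rrm2 and Tk1 of nucleotide supply. Orc4, the call with the lowest p among those that rose, covered 3048, 2878, 2883 and 2970 bp at 37 °C and 3111, 3559, 2906 and 2821 bp at 39 °C, which overlap.

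Rfc2, a small loader subunit, had the widest gap in coverage as a ratio of means, whereas Pola2 and Tk1 lost more bases. Peaks covered 13629, 8584, 6832 and 13116 bp of its locus at 37 °C and 1782, 1672, 1693 and 1313 bp at 39 °C, a 6.53-fold difference in means (centred log2 difference -2.20 ± 0.11, SE; limma adjusted p = 1.47e-06). At 39 °C only the promoter peak was left in each library, whereas peaks ran along the gene in each library at 37 °C. Gins2 covered 13665, 11292, 7677 and 12387 bp at 37 °C and 4223, 3800, 2263 and 2542 bp at 39 °C (limma adjusted p = 0.000153), although its promoter percentile was level. Pole covered 14343, 10021, 8466 and 12718 bp against 4853, 4574, 4418 and 4083 bp (limma adjusted p = 2.65e-05). In these 3 genes the shallowest library at 37 °C was still well above the highest at 39 °C. Rfc5 covered 9197, 6228, 4175 and 9959 bp against 2833, 2587, 2660 and 1628 bp (limma adjusted p = 0.000644). Mcm5 covered 6862, 5156, 3098 and 7385 bp against 2067, 2464, 2153 and 2080 bp (limma adjusted p = 0.00259). Cdc6 covered 11994, 7671, 5791 and 8723 bp against 4237, 4132, 3242 and 2239 bp (limma adjusted p = 0.00163). These ranges did not meet either, and within 37 °C the deep replicates 1 and 4 gave the most bases in all 6 loci. All 14 loci fell with depth as a covariate (16.6% of all loci), and 12 with replicate block and depth (12.8% of all loci, with Mcm10 and Rrm2 lost). With equal numbers of peaks in each list 11 of the 14 fell (15.7% of all loci), and Mcm5, Rfc5 and Pold1 were lost (limma adjusted p up to 0.0601, 0.123 and 0.646 over all alternatives). Pold1 was also lost with a −log10 q of at least 5. With only the gene body and 5 kb upstream, Pold1 and Rrm2 were lost. Pola2 covered 25027, 22564, 20464 and 24742 bp against 12646, 12137, 11293 and 10403 bp, Tyms covered 3948, 3007, 2588 and 3819 bp against 1453, 1202, 1625 and 1069 bp, and Tk1 covered 20567, 20330, 18966 and 20456 bp against 9876, 10681, 8589 and 7893 bp, each without overlap, a state that held lower at 39 °C for 24 of the 41 loci (58.5%) and 36.1% of all loci on these uncentred lengths. Mcm2 covered 11149, 7832, 5983 and 10005 bp against 5440, 4810, 4218 and 4211 bp, and Mcm10 covered 5882, 3698, 3490 and 5458 bp against 2810, 2653, 2644 and 2144 bp. Both, with Pcna, were lost as calls without the 2 deepest libraries. Pcna was also lost without any one of 37 °C replicates 1, 2 and 3 and 39 °C replicates 2, 3 and 4 (limma adjusted p up to 0.492 over all alternatives), and Rrm2 without 37 °C replicate 2 or 39 °C replicate 1 (up to 0.0659). Without the bases within 1 kb of a start, Pola2, Mcm2 and Pcna were lost as calls (limma adjusted p = 0.115 for Pola2), and Rfc2 and Tyms could not be tested.

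**Figure D4:**
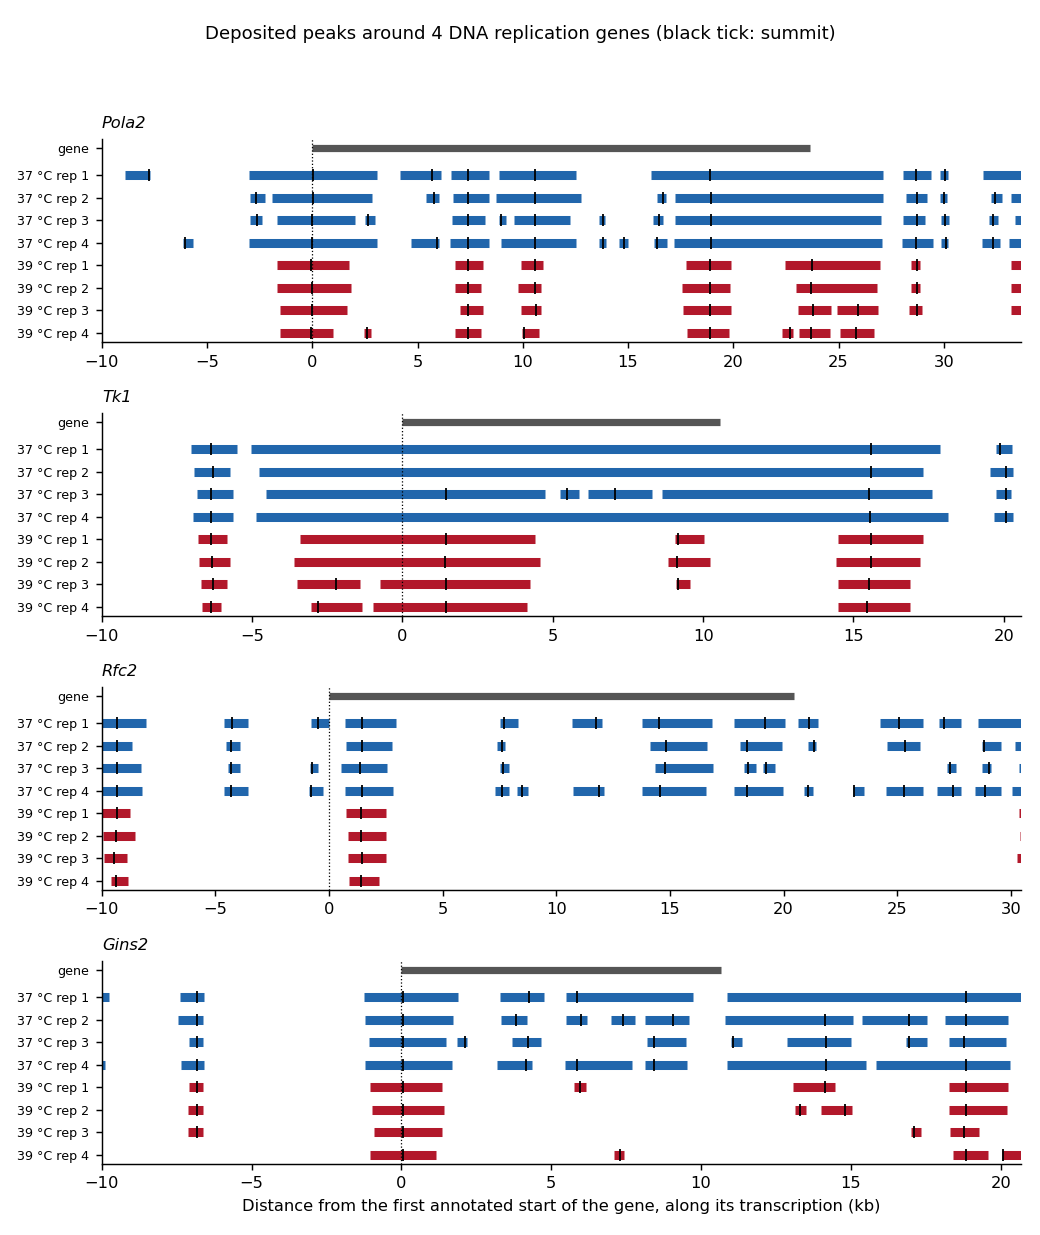
Deposited peaks (bars, blue for 37 °C and red for 39 °C, 1 row per library, black tick at the summit) by distance from the first annotated start along the direction of transcription (horizontal axis, kb) for Pola2, Tk1, Rfc2 and Gins2. At 37 °C peaks are fused over Tk1 in 3 of 4 libraries and run along Rfc2 and Gins2, and at 39 °C Rfc2 keeps its promoter peak alone within the gene and 5 kb on each side.

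The loci of the 41 genes held 138 consensus regions, that is merged peaks called in at least 2 libraries, of which 70 were called in all 8. Of 62 regions over 1 kb from any start, 47 were called in more libraries at 37 °C (75.8%) and 1 at 39 °C (1.61%), where 42.9% and 6.88% of 62699 such regions of the genome were. Regions found in all 4 libraries at 37 °C and in none at 39 °C numbered 11 (7.97%, against 6.04% of all 84777 consensus regions), and 0 were found at 39 °C alone (0.314% of all). Of the 11, Rfc2 had 4, at chr5:134576730-134577816, chr5:134588675-134590103, chr5:134595148-134598239 and chr5:134599179-134601407 (mm10), the first upstream of the gene and the others inside it. Mcm5 had chr8:75111975-75114607 inside the gene, Rpa1 chr11:75298470-75299879, Prim2 chr1:33616685-33617453 and Gins2 chr8:120584555-120586125. The others were chr7:44534472-44535321 in Pold1, chr16:18776891-18779736 beyond the end of Cdc45 and chr5:117373361-117375432 beyond the end of Rfc5. With lists cut to equal numbers of peaks, 4 of 82 regions were found at 37 °C alone and 1 at 39 °C alone, against 2.67% and 1.92% of all. Regions at 37 °C alone were 4 of 122 with a −log10 q of at least 5, against 4.62% of all. Without 37 °C replicate 3 they were 23 of 137, against 10.4%. Strong distal regions were present throughout: the best by mean rank were chr16:18794501-18797496 and chr16:18787724-18790149 in Cdc45 and chr4:34581380-34583617 in Orc3, inside the genes and called in 8 of 8 libraries.

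The share that fell was set beside the presence of an E2F word. Of the 16 replication promoters with a word, 8 fell, and of the 18 matched promoters without one, 8 fell, with median differences of -4.95 and -4.52 percentile points. Over all promoters matched, 14.7% of the 700 with a word and 6.68% of the 9505 without one fell. Of the other words searched, NFY (CCAAT) stood in 61.8% of the replication promoters and 38.5% of all, SP/KLF (GGGCGG, which can overlap TTCCCGCC read on the other strand) in 73.5% and 67.7%, the E-box (CACGTG) in 17.6% and 10.2%, CHR (TTTGAA or TTCGAA) in 11.8% and 12.9%, and the NRF1 word in 0 of 34 and 2.14%. The GC content around the summits had a median of 62.0% in the 41 genes and 65.2% over all promoters. With GC-corrected scores 14 of the 17 calls were kept and Mcm3, Orc5 and Prim1 were lost, where 8.19% of all promoters fell.

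**Figure D5:**
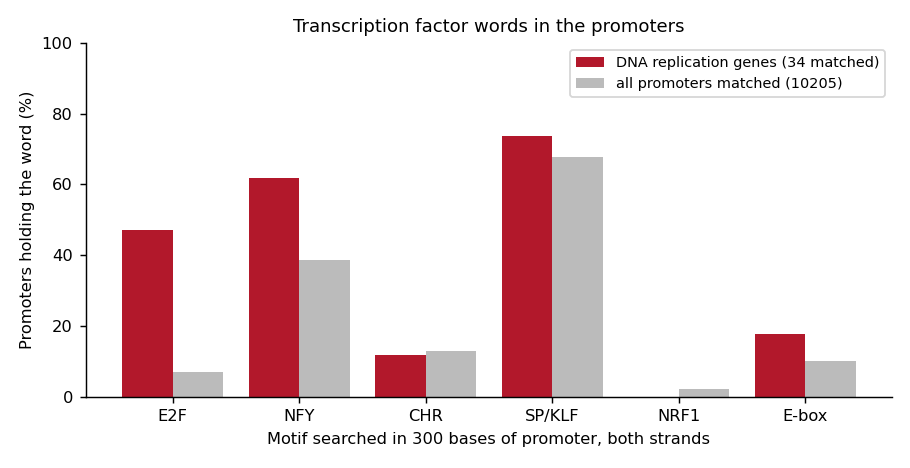
Share of promoters (vertical axis, %) that hold each word in the 300 bases around the RefSeq start, for 34 replication genes (red) and 10205 promoters (grey). The E2F words show the widest gap, at 47.1% against 6.86%.

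A list of 39 further genes of the replication machinery and its regulation, among them Pold2, Pole2, Dbf4, Cdc7, Ticrr, Gmnn and Chaf1a, was measured in the same way. All 39 promoters were open in all 8 libraries, 9 fell and 0 rose in percentile, and the median difference was -2.15 points, against 87.3% open in all 8, 7.79% lower, 8.68% higher and a median of 0.402 over all promoters. The 10 genes for E2F factors and their partners had a median difference of -0.653 points, with 2 that fell and 0 that rose, against the same shares. In covered length, 6 of the 39 genes fell (15.4%) and 11 rose (28.2%), against 19.3% and 31.0% of all loci. Their centred median difference was 0.11 on the log2 scale, against 0.11 over all loci and -0.09 over the 41 replication genes. In the E2F list 6 of 10 fell and 2 rose in covered length, against the same shares of loci. In width 6 of the 39 narrowed and 1 widened, and 1 of the 10 narrowed, against 6.63% of all promoters that narrowed and 3.83% that widened. These lists were chosen with earlier results of the same libraries known.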

How the data were processed

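The authors aligned paired ATAC-seq reads of 8 libraries to mm10 with Bowtie2 2.4.1, sorted and deduplicated them with SAMtools 1.15.1 and Picard 2.26.11, called peaks per library with MACS3 3.0.0a7 at a q-value of 0.05, without a model, a local background or a control, and describe a removal of blacklisted regions with bedtools 2.30.0. In the deposited files a peak has coordinates, a pileup signal in fragments, a fold enrichment (a ratio to one background per library), and a p-value and a q-value, both as −log10. None of these is scaled between libraries.

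Peaks were assigned to GENCODE M21 protein-coding genes within 1 kb of any transcript start, or in the gene body and 5 kb on each side. Percentiles of −log10 q were converted to normal scores. Widths and covered lengths were taken as log2. All were compared with limma 3.58.1 in R 4.3.3 (39 °C minus 37 °C, all genes fitted, Benjamini-Hochberg threshold 0.05), with the exact permutation test over 70 assignments as an alternative (two-sided, smallest p 0.0286). The fits were checked on simulated data. Nothing states whether replicates are separate cultures, so that p-values measure only the spread between these libraries. Named were the 12 genes of lowest p per test among those called, and the highest and lowest of each role. Genes, lists and alternatives were chosen with earlier results of these data known.

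Alternatives varied the score minimum (−log10 q of 5), equal numbers of peaks (54845), start sites, a window of 500 bp, the percentile's reference and score, centring, depth, blocks and libraries. Relative height, width within the window, GC correction and the summit rule were added after the data were seen. Depth was the fragments kept. Counting intervals were not used, since no counts per region were available.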

Additional observations from a re-analysis of the deposited data

Results flagged for a closer look

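Over 82 groups of 4 libraries, 4 values stood apart from the other 3 by Dixon's ratio, where chance gives about 1 in 20 groups. The Pola2 peak near the 3′ end of the gene measured 10991 bp in 37 °C replicate 1, against 9798 to 9919 bp in the other libraries at 37 °C. The Tyms promoter peak measured 3627 bp in the same library, against 2588 to 2690 bp. In 37 °C replicate 3, the library with the fewest fragments, the Tk1 peak measured 8957 bp, against 22065 to 23037 bp, and peaks covered 18966 bp of the Tk1 locus, against 20330 to 20567 bp.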

How the results depend on the processing

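Percentages give the share of all promoters, loci or regions called in the same setting. Of the 17 genes that fell in percentile (7.79%), 10 fell with replicate block and depth in the fit (4.46%), without Orc1, Orc5, Rfc5, Pola1, Prim1, Rrm1 and Rrm2. Without the 2 deepest libraries, both at 37 °C, 11 fell (4.5%), and the same genes except Pola1 were lost. Leaving out 1 library gave 12 to 18 (4.2% to 7.74%). Mcm5, Mcm6, Cdc6, Mcm10, Pola2, Pole and Tyms were called in all 24 alternatives with an adjusted p. Ranks by pileup and by fold enrichment, among the 24, gave the same calls and shares as the main ranks and are not separate checks. Tk1 was called in all 23 in which it could be tested, but its values at the temperatures belong to different summits, and the summit rule removed it. Rises in percentile, 0 in the report (8.68%), came to 2 on relative height (12.1%) and to 1 with GC-corrected scores (9.75%), with depth as a covariate (7.8%) and by the unadjusted exact test (12.8%), and ranged from 0 to 1 without 1 library (1 without 37 °C replicate 1 or 39 °C replicate 4). Narrower peaks, 5 in the report (6.63%), were 10 without centring (9.96%), 12 by summed width (12.8%), 11 within the window (13.3%), 1 with replicate block and depth (1.33%), 3 without the 2 deepest libraries (2.88%) and 9 by the exact test (9.57%), and 4 to 7 without 1 library (3.62% to 9.69%). Wider peaks, 0 in the report (3.83%), were 1 by summed width (12.0%), 1 within the window (0.73%) and 3 by the exact test (13.8%), and 0 to 2 without 1 library (2 without 37 °C replicate 3, 11.5%). Less covered loci, 14 in the report (19.3%), were 23 without centring (36.0%). More covered loci, 10 in the report (31.0%), were 4 with equal numbers of peaks (18.5%), 0 without centring (0.2%), 4 of 29 without promoter bases (29.0%), 6 with the replicate block (24.8%), 4 with depth (21.4%), 0 with both (9.56%) and 0 without the 2 deepest libraries (10.9%), and 4 to 10 without 1 library (20.7% to 33.7%; 4 without 37 °C replicate 1 or 4). Regions found at 37 °C alone, 11 in the report (6.04%), were 4 of 122 with a −log10 q of at least 5 (4.62%) and 4 of 82 with equal numbers of peaks (2.67%), and 11 to 23 without 1 library (23 without 37 °C replicate 3, 10.4%). Regions at 39 °C alone, 0 in the report (0.314%), were 1 with equal numbers (1.92%), and 0 to 1 without 1 library (1 without 39 °C replicate 4, 0.931%). The causes were not tested.

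Libraries share replicate numbers across temperatures. Same-numbered libraries had correlations of deviations of 0.202, -0.106, 0.287 and -0.143, and libraries of different numbers had -0.337 to 0.231. The titles give only a number, and these values cannot settle whether it pairs the libraries. With the replicate block 15 genes fell in percentile (6.53% of all promoters), 6 peaks narrowed (3.27%) and 13 loci were less covered (18.1% of all loci). Presence in all 8 libraries held for all 41 genes with stricter peaks, equal numbers of peaks, other starts and windows and without single libraries, and for 40, without Tk1, where the summit had to lie in the window. Peak lists limit the comparisons to ranks, lengths and relative heights.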
